A study of Homo sapiens with 2 samples.

Results

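The human whole-genome microarray used for these cells carried 902 probes that were each printed in 10 spots, among 50599 probes that were not controls, and the other 49697 were printed once. A probe is a synthetic DNA strand that captures the labeled copy of 1 transcript, and a spot is 1 printed deposit of it. Probes were taken here when at least 5 of the same 10 spots were well above background on both arrays, a call made by the scanner software for each spot. This left 593 probes, 65.7% of those printed in 10 spots, and 588 of them carried a gene symbol, for 587 genes in all, since SRRT had 2 probes. Of the 588, 585 lay in protein-coding genes, 2 in transcribed pseudogenes and 1 in a long non-coding RNA gene.

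Total RNA came from HCT116 cells, an established human colon cancer line, that were transfected either with the pEB-mock vector (genotype label control) or with the pEB vector holding HOXA5 short RNA (genotype label overexpression of HOXA5 short RNA). HOXA5 short RNA is a transcript from the HOXA6 to HOXA5 region, and the comparison asked which other transcripts differ when it is made in excess. Both samples carry the same protocol text, with 2 weeks of blasticidin selection, and neither the labels nor the methods say whether clones were picked from the resistant cells. Each of the 2 groups had 1 array, hybridized with Cy3-labeled RNA in 1 color, so no difference could be tested, and spots of 1 probe are technical copies that hold no spread between cultures.

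The probes printed in 10 spots cover a broad set of human genes, among them DNA repair and cell division genes, signaling kinases, metabolic enzymes, and genes of other tissues. Their copies let the brightness of 1 transcript be read many times over the slide, in the way that repeated wells report the error of a plate assay. Among them are genes of the interferon response, in which a signal from receptors at the cell surface reaches the nucleus and switches on genes that carry interferon response elements, HERC5 and the antigen presentation gene B2M among them.

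The sequences below show that element in promoters of genes measured by these probes. The motif, GAAA followed by any 2 bases and GAAA again, is the core repeat of the interferon-stimulated response element. It was searched on both strands of RefSeq promoter windows (GRCh38.p14) that run from 250 bases before to 50 bases after each gene's start, and overlapping matches were kept. It was held by 3.65% of 27305 promoters and by 15 of the 483 genes of these probes that had a window, or 3.11%. Capitals mark the motif or, on the other strand, its complement. The stretch of HERC5, an interferon-induced ligase of the ubiquitin-like protein ISG15, lies at chr4:88456984-88457103 (plus strand), and that of B2M, the light chain of HLA class I molecules, at chr15:44711363-44711482 (plus strand).
HERC5: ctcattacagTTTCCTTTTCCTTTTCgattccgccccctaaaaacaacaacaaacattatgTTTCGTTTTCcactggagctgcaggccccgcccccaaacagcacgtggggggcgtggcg
B2M: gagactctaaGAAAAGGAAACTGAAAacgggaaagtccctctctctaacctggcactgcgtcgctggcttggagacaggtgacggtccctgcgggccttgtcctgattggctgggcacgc

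Shorter stretches are shown for PARP12, an interferon-inducible mono-ADP-ribosyltransferase, and NMI, an interferon-inducible protein, and for RELA, the NF-kB subunit p65, and CDKL3, a cyclin-dependent kinase-like kinase, as genes that hold the motif without a higher signal. They lie at chr7:140062942-140062971 (plus strand), chr2:151289812-151289841 (plus strand), chr11:65664075-65664104 (minus strand) and chr5:134371230-134371259 (minus strand).
PARP12: ggcgggaaacGAAACCGAAAgcggccccgg
NMI: aaaagacagtGAAAAAGAAAactgctttaa
RELA: agccactggaGAAACTGAAAtgagtgggcg
CDKL3: caaagaccacGAAACAGAAAcactatcccg
Signals of the 15 genes with the motif differed by -0.24 to 0.40 between the arrays on the log2 scale, with a median of -0.02, and 6 of the 15 were higher in cells with HOXA5 short RNA. The 468 genes without it had a median of -0.06, and 146 were higher. Of the 15, 4 (HERC5, PARP12, PFDN6 and NMI) were among the 30 highest of all 587 genes. This count comes from the same ranking, and no link with the motif was tested. A match is a run of letters and does not show that a factor binds there. The motif and the genes shown were picked after the values were known.

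Most of these probes were measured in every spot: 561 of the 593 had all 10 spots well above background on both arrays. Spots were left out when the software marked them, on either array, as outliers among their copies or as uneven within the spot. These were 409 of 5853, so that 5444 spots gave the values. All 10 spots entered for 303 probes, and the fewest was 4, for TRDMT1, OR51B2 and CORO2B. Each spot's signal was divided by the 75th percentile of its array, 35.7 in mock cells and 44.0 in cells with HOXA5 short RNA, and the value of a probe is the median over its spots of the log2 difference, HOXA5 short minus mock. Medians of the raw signal ran from 9.48 to 36280 in mock cells and from 10.6 to 42454 in cells with HOXA5 short RNA, and no spot was saturated. The copies lay far apart on the grid of 384 rows and 164 columns, with a median extent of 321 rows and 135 columns.

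The main result was a narrow distribution with no large difference. None of the 593 probes was 2-fold higher in cells with HOXA5 short RNA, against 1.06% of all 17939 probes compared, and none was 2-fold lower, against 0.318%. At 1.5-fold, 0 were higher, against 3.94% of all probes compared, and 1 was lower (TRIP11), against 2.31%. The values ran from -0.60 to 0.51. Their median was -0.06 and their SD over probes 0.15, and 530 of the 593 (89.4%) lay within 0.25 of 0. The 17346 probes printed once ran from -3.09 to 4.16. Their median was -0.02, their SD was 0.33, and 69.4% lay within 0.25 of 0. A probe printed once has 1 spot, so it has no median over copies and cannot be marked as an outlier among them. Other genes are measured by such probes, so the 2 sets differ in more than printing.

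Below 0 lay 401 probes and above it 192, and this split depended on how the arrays were set to a common level. It was 229 against 364 when each array was scaled to its median, 262 against 331 after normexp background correction, and 5 against 588 when scaled to the RNA spike-ins. Scaling to the median moved the probes printed once from -0.02 to 0.08 at their median and spike-in scaling moved them to 0.44, so a value near 0 has a place among the other probes rather than a sign of its own. Against the median of probes printed once, the median of these probes was -0.04 under each of those scalings. They shift all probes of an array alike, so they cannot change this gap. It was -0.01 after normexp, which can. All used spots pointed up in 25 probes and down in 97.

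HERC5 was the interferon-induced gene described here in full. It read between 252 and 341 in the 9 used spots of the mock array and between 417 and 516 in those of the HOXA5 short array, with medians of 297 and 483. These raw ranges did not overlap, but the HOXA5 short array was brighter as a whole, and after scaling the highest mock spot lay above the lowest HOXA5 short spot. Its scaled difference was 0.40 (SD 0.14), 0.17 in the lowest spot and 0.53 in the highest, and all 9 spots were higher. Under the alternative scalings and normexp it stayed above 0, between 0.38 and 0.86.

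The 4 probes of the HLA and antigen presentation list lay on the same side as HERC5, from 0.01 to 0.22. Of all 593 probes 192 were higher. The list had a median of 0.15, beside -0.06 over the 593 and -0.02 over all probes compared. Its median stayed above 0 under each scaling, although HLA-DRB1 turned below 0 with scaling over detected probes (3 of 4 higher). B2M read 3930 and 5402, a difference of 0.15 (SD 0.06, 10 spots). HLA-J, a class I pseudogene, differed by 0.22 (SD 0.18, 9 spots), and HLA-DRB1, a class II chain, by 0.01 (SD 0.13, 8 spots). HLA genes are close copies of each other, so these probes may share targets. PARP12 differed by 0.22 (SD 0.19), TDRD7, a tudor domain protein, by 0.22 (SD 0.09) and NMI by 0.20 (SD 0.08), each over 10 spots, and these 3 were singled out after their values were seen.

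Other genes among the 10 highest had differing spread over their spots. AKAP12, a scaffold for protein kinase A, read 69.8 and 117, a difference of 0.43 (SD 0.09) over 6 spots, 4 having been marked as outliers. GRB10, an adaptor that binds the insulin receptor, read 392 and 615, a difference of 0.32 (SD 0.09, 9 spots), and every spot was higher. ZFP36L2, which binds AU-rich elements and speeds mRNA decay, read 49.8 and 75.9, a difference of 0.32 (SD 0.17, 7 spots). These 3 had no used spot below 0, while marked spots, left out here, lay below 0 in each of them.
KCNS3, a potassium channel subunit, read 67.5 and 111, a difference of 0.42 (SD 0.33, 9 spots), with 7 of 9 spots higher. ZFAND3, a zinc finger protein, read 13.9 and 22.1, a difference of 0.41 (SD 0.26, 8 spots), which fell to 0.03 after normexp. ACSL1, which activates long-chain fatty acids, read 21.8 and 33.5, a difference of 0.36 (SD 0.28, 10 spots), and 0.12 after normexp. Used spots of these probes lay on both sides of 0.

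The highest value of all belonged to SULT1A2, a phenol sulfotransferase, and its spots disagreed. On the HOXA5 short array its 9 used spots were tight, between 93.5 and 107, while on the mock array they ran from 31.2 to 88.5. The difference was 0.51 (SD 0.60), from -0.22 to 1.46. SULT1A2 has close sequence relatives among the sulfotransferases, which its probe may also capture. EIF5B, a translation initiation factor, showed the same unevenness: between 108 and 144 on the HOXA5 short array and between 18.4 and 163 on the mock array, for a difference of 0.35 (SD 0.91, 10 spots), from -0.78 to 2.30. Of its 10 spots, 6 were higher.

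At the lower end, the 10 lowest probes are counted among those with a gene symbol. TRIP11, a golgin that tethers vesicles at the Golgi, was the only probe past 1.5-fold, at 103 in mock cells and 83.9 in cells with HOXA5 short RNA. Its mock spots ran from 89.7 to 126 and its HOXA5 short spots from 81.1 to 91.1, so the raw ranges overlapped, and after scaling all 10 spots were lower, from -0.89 to -0.36, with a median of -0.60 (SD 0.15). KNL1, the kinetochore scaffold that recruits checkpoint proteins, read 92.0 and 79.4, a difference of -0.52 (SD 0.20, 9 spots). CENPE, the kinetochore motor that aligns chromosomes, read 44.4 and 38.4, a difference of -0.48 (SD 0.15, 10 spots). Both had every used spot below 0.
TOP2B, a DNA topoisomerase, read 543 and 491, a difference of -0.43 (SD 0.07, 10 spots). SMC6, part of the SMC5/6 complex that acts in DNA repair, read 98.3 and 96.6, a difference of -0.39 (SD 0.12, 9 spots). HMGN5, a nucleosome-binding protein, read 38.4 and 34.0, a difference of -0.44 (SD 0.19, 10 spots). All used spots of these 3 were below 0.
PPIP5K2, an inositol phosphate kinase, read 92.2 and 83.2, a difference of -0.49 (SD 0.14, 10 spots). PHACTR2, which binds actin and protein phosphatase 1, read 20.4 and 19.7, a difference of -0.50 (SD 0.27, 7 spots). TRIM36, a ubiquitin ligase, differed by -0.38 (SD 0.27) and PRR15L, a proline-rich protein, by -0.37 (SD 0.25), each over 10 spots. With spike-in scaling 5 of the 10 lowest turned above 0 (TOP2B 0.03, HMGN5 0.02, SMC6 0.07, TRIM36 0.09, PRR15L 0.09), and TRIP11 was at -0.13. Under the other scalings and normexp all 10 stayed below 0, with TRIP11 at -0.50 when scaled to the median and -0.30 after normexp.

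The lists that describe what these genes do were fixed with earlier results known. No list other than the interferon-induced one, of 2 probes, had a median above 0.2. Medians below -0.2 were those of MAPK feedback targets (-0.235, 1 probe), Polycomb and trithorax (-0.230, 2 probes) and tRNA synthetases (-0.204, 1 probe). Of 10 DNA repair genes 8 were lower and 2 higher, with a median of -0.13. Of all 593 probes 401 were lower, with a median of -0.06, and the median over all probes compared was -0.02. Lowest in the DNA repair list, which does not hold SMC6, was MSH3, a mismatch repair protein, at -0.32 (SD 0.23, 6 spots). MSH3 was dim, at 12.6 in mock cells and 12.7 in cells with HOXA5 short RNA. Next were RAD50, of the double-strand break sensor, at -0.29 (SD 0.15, 8 spots), and BRCA1, which acts in homologous recombination, at -0.27 (SD 0.15, 10 spots). MSH6, which recognizes mismatches, lay at -0.02 (SD 0.15, 8 spots) and the exonuclease EXO1 at 0.06 (SD 0.09, 10 spots). The median of the DNA repair list was -0.03 when scaled to the array median, with 4 of 10 higher. With spike-ins it was 0.34, with 10 of 10 higher.
Cell cycle and replication genes were split, 4 higher and 7 lower of 11, beside 192 and 401 of all 593 probes. The median of the 11 was -0.03 and became 0.07 when scaled to the array median. CENPE was their lowest. RB1, the retinoblastoma protein that holds back E2F factors, read 266 and 282, a difference of -0.28 (SD 0.11, 9 spots). The cyclins CCNB1 at -0.03 and CCND1 at -0.02 were near 0, and KIF20A, a kinesin of cytokinesis, was highest at 0.19 (SD 0.08, 9 spots).

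Zinc finger genes had 12 of 15 lower and a median of -0.15, from -0.30 for ZNF146 to 0.32 for ZFP36L2. Of all 593 probes 401 were lower, with a median of -0.06. The list joins DNA-binding factors with RNA-binding ones such as ZFP36L2. Its median was -0.05 scaled to the array median and 0.31 with spike-ins. SUZ12, a core subunit of the histone methyltransferase complex PRC2, read 385 and 393, a difference of -0.32 (SD 0.09, 9 spots), and HIF1A, the oxygen-regulated factor, read 169 and 161, a difference of -0.33 (SD 0.18, 9 spots). The splicing factors HNRNPH3 at -0.34 (SD 0.07), HNRNPH2 at -0.12 (SD 0.17) and SNRPF at -0.10 (SD 0.08) all lay below 0.

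The signaling genes named here ran from -0.20 to 0.21, on both sides of 0. ERBB2, the only EGF receptor family member with a detected 10-spot probe, read 345 and 376, a difference of -0.20 (SD 0.08, 10 spots). Downstream of such receptors, the GTPase HRAS was at -0.15 (SD 0.12, 8 spots), the kinase BRAF at -0.20 (SD 0.21, 7 spots) and MAPK3 at -0.01 (SD 0.15, 10 spots). The 7 kinase and phosphatase genes of these pathways had a median of -0.01, with 3 higher and 4 lower, beside 192 and 401 of all 593 probes. Of NF-kB genes, the inhibitor NFKBIA read 1576 and 2235, a difference of 0.21 (SD 0.08, 10 spots), while NFKB1 was at 0.01 (SD 0.12) and RELA at -0.10 (SD 0.12). Wnt genes ran from -0.18 for the kinase GSK3B to 0.15 for the factor TCF7, with beta-catenin (CTNNB1) at -0.11 (SD 0.09, 10 spots). HOXA5 and EGFR had no 10-spot probe.

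Genes often used to set expression levels lay within 0.15 of 0. Of 10 such genes 6 were higher and 4 lower, with a median of 0.03, and B2M was the highest at 0.15. Of all 593 probes 192 were higher and 401 lower. GAPDH, of glycolysis, read 20019 and 25480, a difference of 0.04 (SD 0.13, 9 spots), and actin (ACTB) read 3485 and 4335, a difference of 0.02 (SD 0.08, 10 spots). RPLP0, a ribosomal stalk protein, differed by 0.09 (SD 0.23) over 8 spots. Its 2 marked spots show what a lone reading could give: 16249 on the mock array against 3826 on the other, a difference of -2.39, and 2177 against 21715, a difference of 3.01. The 10 genes read higher, 9 of 10, when scaled to the array median, all 10 did with spike-ins or normexp, and 3 did after quantile normalization.

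The spread between spots of 1 probe was 0.19 on the log2 scale of the difference, as a root mean square SD, and 0.26 when marked spots were kept. For the scaled signal alone it was 0.16 in mock cells and 0.12 in cells with HOXA5 short RNA. It fell with signal, from 0.30 for the 21 probes below a mean signal of 15 to 0.26 for the 97 from 15 to 50, 0.19 for the 205 from 50 to 200 and 0.15 for the 270 above. The median standard error of a probe's value, SD divided by the root of its spots, was 0.05, and the SD of values over probes was 0.15. Over spots the coefficient of variation had a median of 7.87% in mock cells and 6.02% in cells with HOXA5 short RNA, beside an error of 10.1% that the software assigned on each array.

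Taken 1 at a time, spots of these probes passed 2-fold although no median did. With marked spots kept, 62 of 5853 (1.06%) did, in 52 probes, and without them 16 of 5444 (0.294%), in 12 probes. Spots that strayed 2-fold from their own probe's median were all dimmer, 31 in mock cells and 19 in cells with HOXA5 short RNA, and 0 were brighter. On the difference, 55 spots lay 2-fold from their probe. Of these 33 were among the 470 spots in grid columns 1 to 14 (7.02%), and 22 among the 5383 in other columns (0.409%). CAV1, the coat protein of caveolae, showed this plainly. Of its 10 spots, those at columns 3 and 5, in rows 233 and 242, read 271 and 336 on the HOXA5 short array against 1085 and 1135 on the mock array, differences of -2.31 and -2.06. A neighboring marked spot at row 247 and column 2 read 806 and 289. The other 7 spots lay between -0.17 and 0.04, and the median of CAV1 was -0.04.

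For 151 of the genes, 177 further probes printed once were well above background on both arrays, which made 178 pairs. The paired values differed by 0.16 at the median, 88.2% lay within 0.5 of each other, and 62.9% had the same sign. Across these pairs Pearson's r was 0.19 and Spearman's rho 0.24, a description across genes that share both arrays. GRB10 had a second probe at 0.34 beside its 0.32, and PHACTR2 had others at -0.81 and -0.30 beside -0.50. AKAP12 at 0.43 had others at 0.17 and -0.33, and ZFAND3 at 0.41 had one at -0.07.
In 3 pairs the gap was over 2-fold, and in each the probe printed once was the higher. HSP90AA1, a cytosolic chaperone, differed by -0.07 (SD 0.12, 8 spots) with its 10-spot probe to NM_005348, and by 1.69, from 271 to 1080, with a probe to the other transcript NM_001017963. A further probe to NM_001017963 differed by 0.90, from 8890 to 20479. HDDC2, an HD domain phosphatase, differed by -0.09 (SD 0.15), and by 1.74, from 108 to 444, with a probe to the same transcript NM_016063. PTPN11, the phosphatase SHP2, differed by -0.26 (SD 0.08), and by 1.03, from 29.3 to 73.7, with a probe to NM_080601 in place of NM_002834. Its other probe to NM_002834, printed once, was at -0.06. Among the neighbors of the 3 spots with a gap over 2-fold, within 3 rows and 3 columns, 0 of 7, 1 of 13 and 0 of 13 were past 2-fold. The spot for HDDC2 lay in column 10, among the columns where copies strayed most often. That for HSP90AA1 lay in row 1, at the edge of the grid, and had the fewest measured neighbors of the 3.

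Genes that span more of the genome had slightly lower values. With 588 probes split into 4 groups of 147 by the RefSeq span of their gene, the median difference was -0.04 for the shortest, up to 12.6 kb, then -0.05, -0.06 and, for spans from 66.7 kb, -0.09. The number of probes above 0 was 60, 47, 48 and 37 of 147. Of the 10 lowest genes 8 were in the group of longest genes, and of the 10 highest 4. The probes printed once, set to the same limits, had medians of -0.01, -0.01, -0.02 and -0.04. Longer genes also had lower signals here (Spearman's rho -0.25 across 588 probes, beside -0.15 for span and difference), and the part of signal in this was not tested. The split by span was made after the lowest genes were seen.

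The 309 probes printed in 10 spots that were not taken were mostly dim on both arrays. At least 5 spots were well above background on neither array for 296, on the HOXA5 short array alone for 9, on the mock array alone for 3, and on both but in fewer than 5 of the same spots for ANKRD26. Undetected ones included genes of other cell types and tissues, such as VWF of endothelium, the kinase LCK of T cells, COL1A2 of fibroblasts and the estrogen receptor ESR1, and also the tumor suppressors APC, ATM and BRCA2, whose probes were not well above background. Where 1 array alone was above background, the fold rests partly on undetected signals and leaves out the spread over spots. GSTA4, a glutathione transferase, was 1.04-fold higher in cells with HOXA5 short RNA by a bound below its measured log2 difference of 0.47. KIF21A, a kinesin, was 1.26-fold lower, which is its measured difference (-0.33 on the log2 scale) and no bound. MMP1, another of the 9, had a bound of 0.99-fold beside a measured 0.36, so no rise can be set for it. The probes taken with the fewest detected spots, 5, were CXCR4 at 0.12, TRDMT1 at 0.00, OR51B2 at -0.28 and CORO2B at 0.00. Just short of the limit, with 4, BANK1 was above background on the HOXA5 short array alone. It measured 1.04-fold higher there, which is no bound. Over the whole array, markers of colon epithelium were above background on both arrays for 6 of 9 genes (not for VIL1, CDH17 and LGALS4). Of fibroblast markers 1 of 6 (COL1A1) was above background on both arrays, of endothelial ones 0 of 4, and of leukocyte ones 0 of 4 in mock cells and 1 of 4 (CD14) in cells with HOXA5 short RNA.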

How the data were processed

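Per the file headers, the authors scanned each 1-color array with Agilent Feature Extraction 11.5.1.1, whose deposited intensity is the processed signal of each spot after background subtraction and detrending within the array, on a design annotated on hg19. The authors also deposited a log2 table centered on the mean of both arrays, made in GeneSpring with a filter on low signals, which served as an alternative.
Signals of 62976 spots, 58717 of them not controls, were divided by the array's 75th percentile over probes, converted to log2 and subtracted (HOXA5 short minus mock). Accessions were named through the RefSeq table. Spots flagged on either array as population outliers or as non-uniform were left out of medians. The members and gene lists were chosen with earlier results of these data known. The genes named are the 10 highest and 10 lowest, the brightest and dimmest, the 3 with the widest spot range, up to 4 for each list with 3 or more probes, and RPLP0; others are said to be chosen after their values were seen, or illustrate a list's range, a motif, a second probe or a limit. Alternatives covered scaling, background correction, spot choice, dim-probe filters, thresholds and the deposited table. With 1 array per group no test was run, and the precision is limited by how few arrays there are. Python 3.11.15, numpy 2.4.6, pandas 2.3.3, and R 4.3.3 with limma 3.58.1 (normexp, offset 50) were used, and the median over spots was tested on simulated data. Probe sequences were not used here. Results for some genes are not reported here.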

Additional observations from a re-analysis of the deposited data

How the results depend on the processing

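None of the 593 detected probes printed in 10 spots passed 2-fold in either direction under any alternative scaling, background correction, spot choice or filter, or in the deposited log2 table, which held all 593 (shift 0.01, SD 0.06 against the values given here). At 1.5-fold the counts, 0 higher and 1 lower, moved. The number higher was 1 with the mean over spots, 1 with scaling to the array median and 59 with spike-in scaling. The number lower was 0 with the mean over spots, scaling to the median, spike-ins, normexp or subtraction of the local mean of neighboring spots. It was also 0 with only probes above the median signal, which leaves out TRIP11 by construction. TRIP11, at -0.595, was just past the 1.5-fold limit of 0.585. Scaling to the median or the spike-ins shifts all probes alike, and it was then at -0.50 and -0.13. It was at -0.30 after normexp and -0.57 after subtraction of the local mean. For these 2 and the mean over spots the cause was not tested. The median over probes moved from -0.06 to 0.40 with spike-in scaling, and the SD between spots from 0.19 to 0.12 with normexp, which compresses dim signals by its offset. The split of higher and lower probes was 174 and 419 with scaling over detected probes and 178 and 415 with quantile normalization. For 131 named probes, 1632 values under the alternatives were computed. Of these 1411 moved by less than the SD over spots and 221 by more, 127 of them with spike-in scaling, 55 with normexp and 30 with scaling to the median. No paired analysis was possible because each group has 1 array and no result comes from a test. Signals near background limit the dimmest probes, where the spread over spots was widest.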

Other observations

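Among 20 chromosomes with at least 10 of the probes, the median difference ran from -0.17 for the 19 probes of chromosome 14 to -0.00 for the 35 probes of chromosome 16. Over all 593 probes the median was -0.06 and the SD 0.15, and differences between chromosomes were not tested. Several further genes with a narrow spread over spots lay low. WRN, the helicase lost in Werner syndrome, read 100 in mock cells and 97.8 in cells with HOXA5 short RNA, a difference of -0.36 (SD 0.04, 8 spots), and KIAA0586, a centrosome protein needed for cilia, read 144 and 141, a difference of -0.36 (SD 0.07, 10 spots). PLAU, the urokinase that activates plasminogen, read 2583 and 3634, a difference of 0.15 (SD 0.06, 10 spots), while MMP9, a gelatinase, was at -0.23 (SD 0.31, 10 spots). These genes were picked after their values were seen.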
